A study of Mus musculus with 19 samples.

Results

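The 10 libraries described here are knockout cerebella in which little normal granule cell RNA was left, and the comparison is between the Cre lines that made the knockout. They were chosen by 1 gene, Gabra6, a GABA-A receptor subunit made by mature cerebellar granule neurons: every knockout library with less than 20 FPKM of Gabra6 was kept (FPKM, fragments counted per kilobase of transcript and scaled to the mapped fragments of the library). This left 10 of the 16 knockout libraries and of the 19 libraries in all. The kept libraries are Olig1-Gnas 1 to 6 and hGFAP-Gnas 3 to 6. Bulk RNA of cerebellum was sequenced from C57BL/6 mice at postnatal day 60. The Olig1-Gnas mice have a conditional knockout of Gsα, the protein encoded by Gnas, made with Olig1Cre, and the hGFAP-Gnas mice have it made with hGFAPCre. The 3 Ctrl mice are labelled wild type, and no agent is named for any group. By their names, Olig1Cre follows the promoter of a gene of the oligodendrocyte lineage, and hGFAPCre follows the human GFAP promoter, which is active in radial glia and astrocytes. In which cells Cre acted is not stated for either line. The labels describe neither the alleles nor the Cre constructs, and call each library by its mouse only.

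Gsα couples hormone and neurotransmitter receptors to adenylyl cyclase, and cAMP then activates protein kinase A, which holds the GLI transcription factors of the hedgehog pathway in check. In the young cerebellum hedgehog signals drive the division of granule neuron progenitors, and loss of Gsα in these cells is known to produce medulloblastoma of the hedgehog type. A tumor grows next to, and at the cost of, the normal granule neurons, Purkinje cells and glia, so a library of such tissue can hold more or less normal cerebellum.

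Deposited FPKM summed to 603067 to 689165 in the 6 Olig1-Gnas libraries, 545426 to 617312 in the 4 hGFAP-Gnas libraries and 508329 to 525832 in Ctrl. Read totals are not known here, and the spacing of the lowest values put the depth of the 10 libraries at 0.266 to 0.993 of Ctrl 2, with Olig1-Gnas 1 to 4 and hGFAP-Gnas 5 and 6 in a shallower class. Ddx3y, a Y-linked gene, stood at 14.8 to 22.8 FPKM in Olig1-Gnas 5 and hGFAP-Gnas 4, 5 and 6 and under 0.1 FPKM in the other 6 libraries, which gives 1 library with Y-linked signal among 6 from Olig1-Gnas and 3 among 4 from hGFAP-Gnas. Some libraries stood apart from their group: Olig1-Gnas 1 and 2 in genes of immune cells, Olig1-Gnas 3 and 4 in Cdkn2a, and Olig1-Gnas 6 on the first principal component. Across all genes tested, the correlation of log2 levels was 0.833 to 0.924 (median 0.890) over 15 pairs of Olig1-Gnas libraries, 0.902 to 0.932 (median 0.915) over 6 pairs of hGFAP-Gnas libraries and 0.851 to 0.934 (median 0.890) over the 24 pairs between them. Libraries of different Cre lines were thus about as alike as the Olig1-Gnas libraries were among themselves. The targeted gene could not check the labels, because Gnas was listed at 0 in Ctrl 3, Olig1-Gnas 1 and 6 and hGFAP-Gnas 3, 4 and 6, against 651 and 798 FPKM in Ctrl 1 and 2 and 24.0 to 117 FPKM in the remaining 5 of the 10 libraries, and an exact 0 can be a failed estimate.

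Residual neurons were low in both Cre lines but not equally low. Gabra6, which chose the libraries and so is only described, had a lowest value of 0, a median of 1.2 and a highest value of 3.27 FPKM in Olig1-Gnas, and stood at 10.1, 4.48, 11.4 and 12.4 FPKM in hGFAP-Gnas 3 to 6. The groups did not overlap, and all 10 libraries lay far below the 468, 370.4 and 224 FPKM of Ctrl. The library closest to the limit from below was hGFAP-Gnas 6 at 12.4 FPKM. Closest from above were Olig1-Gnas 8 at 59.8 and hGFAP-Gnas 8 at 59.9 FPKM. No knockout library lay between 12.4 and 59.8 FPKM, but a limit of 10 FPKM would keep only hGFAP-Gnas 4 of its line. Calb1, a calcium-binding protein of Purkinje cells that the rule did not use, picked the same 10 libraries at the same limit. It ranged from 0.0476 to 2.55 FPKM (median 1.54) in Olig1-Gnas and stood at 8.58, 5.53, 9.04 and 15.2 FPKM in hGFAP-Gnas, again without overlap. Its difference was 2.20 ± 0.39 on the log2(FPKM + 1) scale with an adjusted p of 0.104 (limma, Benjamini-Hochberg over all genes tested). In bulk RNA, fewer cells of a type and less RNA per cell cannot be told apart.

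**Figure D1:**
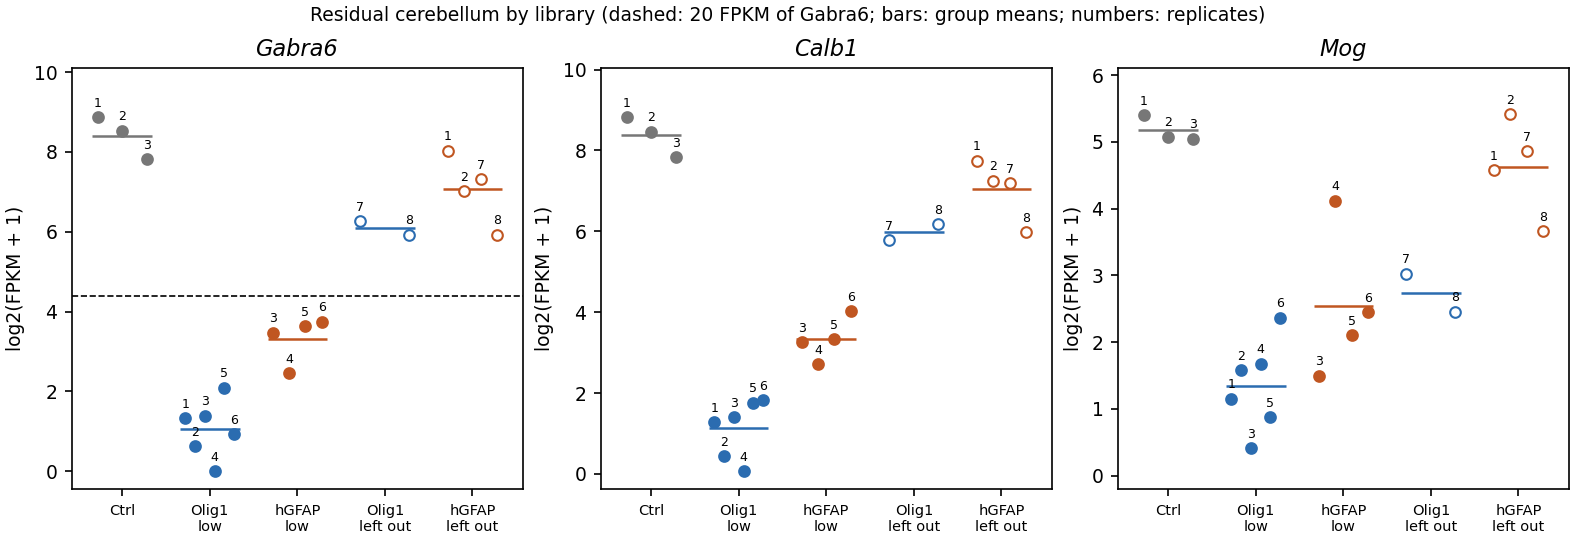
Level in log2(FPKM + 1) of Gabra6 (granule neurons), Calb1 (Purkinje cells) and Mog (myelin) in all 19 libraries; points are libraries with their replicate numbers, short bars are group means, and the dashed line marks 20 FPKM of Gabra6. Among the filled knockout points, the 4 hGFAP-Gnas libraries lie above the 6 Olig1-Gnas libraries for Gabra6 and Calb1, and the groups overlap for Mog.

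With the 10 libraries compared gene by gene, 7 genes passed the test and all 7 were higher in hGFAP-Gnas: Prm1, Dmrtb1, Krt10, Cxcl5, Chn2, Krt23 and Mrc1. They are 0.0506% of the 13824 genes tested, those that reached 1 FPKM in 3 or more of the 10 libraries. The test was limma on log2(FPKM + 1) with Benjamini-Hochberg adjustment, and called means an adjusted p below 0.05. By the same test 0 genes were called lower in hGFAP-Gnas, although 370 genes were lower and 910 higher at an unadjusted p under 0.05, 9.26% of the genes tested together. The median difference over all genes was 0.06, with a 5th to 95th percentile from -0.39 to 0.75, and 59.8% of genes had the higher mean in hGFAP-Gnas. For the median gene the 95% confidence interval of the difference reached 0.47 to each side, before any adjustment for the number of genes. The smallest called difference was 1.60. Prm1, Dmrtb1 and Krt23 stayed below 1 FPKM in every Olig1-Gnas library and passed the filter on level only through hGFAP-Gnas. Their direction and calls are therefore a description only. The fit with no such filter called 13 of 19038 genes, all 7 among them. Levels in all 6 Olig1-Gnas and all 4 hGFAP-Gnas libraries did not overlap for 472 genes (3.41%), 337 of them higher in hGFAP-Gnas (2.44%) and 135 lower (0.977%). The count rests in part on single libraries: without Olig1-Gnas 6 it was 23, without Olig1-Gnas 3 it was 12 and without hGFAP-Gnas 3 it was 13, and all 7 genes were called in these fits and in the others that left out 1 Olig1-Gnas library. Of the genes that missed the threshold, Aff3, a nuclear protein of the elongation complex family, came closest, at 11.9 to 17.8 FPKM in Olig1-Gnas and 24.4 to 30.9 FPKM in hGFAP-Gnas (difference 0.92, adjusted p 0.0692).

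**Figure D2:**
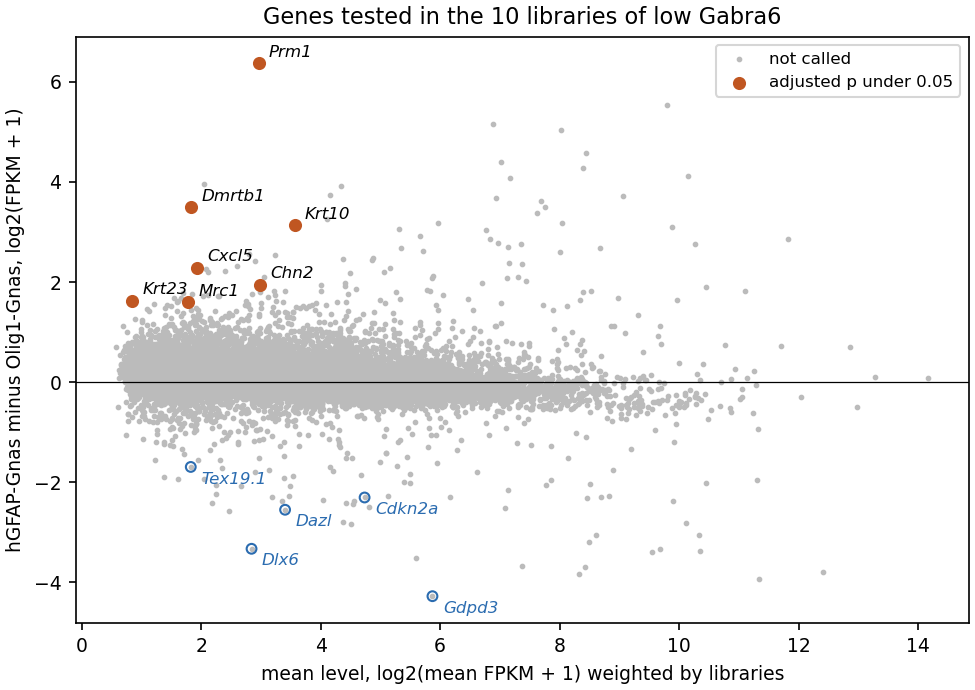
Each point is 1 of the 13824 genes tested, with its level over the 10 libraries on the horizontal axis and the difference of hGFAP-Gnas minus Olig1-Gnas on the vertical axis, both in log2 units. The 7 called genes (filled, named) lie at 1.60 to 6.37, and Gdpd3, Dlx6, Dazl, Cdkn2a and Tex19.1 (open circles), none of them called, lie at -4.27 to -1.69.

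Of the called genes, the pair with the largest differences is known from the testis. Prm1 encodes protamine 1, which packs the DNA of sperm, and lies on chromosome 16 at 10796424 to 10796916 of mm9. Its highest value in Olig1-Gnas was 0.72 FPKM, its median 0.201 and its lowest 0, whereas hGFAP-Gnas 3 to 6 had 199, 53.9, 97.9 and 106 FPKM. The groups were far apart, by 6.37 ± 0.33 in log2 units (standard error; 95% interval 5.64 to 7.09; limma adjusted p 8.75e-06). Wild-type cerebella did not share 1 level: Ctrl 1 and 2 had 0.38 and 0.964 FPKM, and Ctrl 3 had 73.2 FPKM, within the range of hGFAP-Gnas. Prm2, Prm3 and Tnp2, the neighbors of Prm1 that sperm precursors express with it, were between 0 and 0.408 FPKM in all 19 libraries. As background, the intron and polyadenylation end of Prm1 serve as the tail of some Cre transgenes. Whether the reads counted for Prm1 come from such a tail was not tested. Ctrl 3 is labelled wild type, and why its Prm1 differs from that of Ctrl 1 and 2 was not tested either. The comparison of the Cre lines does not use the Ctrl libraries. Dmrtb1, a DM-domain transcription factor of spermatogonia on chromosome 4 at 107348894 to 107356767, ranged from 0.0786 to 0.532 FPKM (median 0.284) in Olig1-Gnas and stood at 4.03, 24.4, 14.4 and 19.9 FPKM in hGFAP-Gnas. Here Ctrl was at 0.254 to 0.381 FPKM, as low as Olig1-Gnas. The difference of Dmrtb1 was 3.49 ± 0.39 (adjusted p 0.00711).

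The stretch of 250 bases before the RefSeq start of Prm1 is shown because the gene had the largest difference, and those of Krt10 and Krt23 because both keratin genes were called and lie close together. They were read from RefSeq on GRCm38.p6, whose positions are not those of mm9, and 6 of the 7 called genes had an entry. The search covered TATAAA (the TATA box), TGACGTCA (the full cAMP response element) and TGACTTCA (a variant of that element), each on both strands, and capitals mark the matches. Among 32851 RefSeq windows of 250 bases, 12.4% hold TATAAA, 1.55% TGACGTCA and 1.31% TGACTTCA.
Prm1, chr16:10796824-10797073, minus strand: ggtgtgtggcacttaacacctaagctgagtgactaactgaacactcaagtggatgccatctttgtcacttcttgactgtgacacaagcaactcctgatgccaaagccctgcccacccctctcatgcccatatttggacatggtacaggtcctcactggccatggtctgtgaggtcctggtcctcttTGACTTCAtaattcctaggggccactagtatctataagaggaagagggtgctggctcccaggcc
Krt10, chr11:99389365-99389614, minus strand: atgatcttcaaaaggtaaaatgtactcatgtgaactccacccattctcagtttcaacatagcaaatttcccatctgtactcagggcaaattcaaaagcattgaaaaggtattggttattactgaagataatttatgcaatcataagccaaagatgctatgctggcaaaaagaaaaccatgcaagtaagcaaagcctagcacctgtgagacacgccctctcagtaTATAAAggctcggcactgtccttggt
Krt23, chr11:99493121-99493370, minus strand: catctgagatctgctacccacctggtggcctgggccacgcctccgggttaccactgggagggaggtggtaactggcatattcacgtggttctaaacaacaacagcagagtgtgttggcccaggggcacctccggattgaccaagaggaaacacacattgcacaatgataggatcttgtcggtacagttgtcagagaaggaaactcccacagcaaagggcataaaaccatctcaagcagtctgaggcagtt
The window of Prm1 holds TGACTTCA 64 bases before the start, that of Krt10 holds TATAAA 26 bases before the start, and that of Krt23 holds none of the 3. A match describes these letters and shows no use of them.

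Both called keratins belong to the type I cluster of chromosome 11, whose products form the intermediate filaments of epithelial cells. Krt10, the keratin of differentiating epidermis at 99246568 to 99250678 of mm9, ranged from 1.80 to 6.49 FPKM (median 3.70) in Olig1-Gnas. In hGFAP-Gnas 3 to 6 it stood at 48.3, 17.7, 49.8 and 59.6 FPKM. The lowest hGFAP-Gnas library was above the highest Olig1-Gnas library and above Ctrl, at 3.27 to 6.46 FPKM, and the difference was 3.14 ± 0.34 (limma adjusted p 0.00711). Krt23, 88.6 kb away at 99339286 to 99354424, was at 0 in Ctrl and at most 0.469 FPKM in Olig1-Gnas (lowest 0, median 0.0881). It reached 3.36, 1.95, 3.07 and 1.85 FPKM in hGFAP-Gnas, a difference of 1.63 ± 0.19 (adjusted p 0.0107), which missed the threshold under quantile normalization (adjusted p 0.0817), with an offset of 0.1 (0.0642) and without hGFAP-Gnas 5 (0.0587). Between them lie Krt12, a keratin of the cornea, and Krt20, a keratin of the gut lining. Krt12 stood at 39.9, 26.3, 53.2 and 49.4 FPKM in hGFAP-Gnas but ran from 0.189 to 116 FPKM in Olig1-Gnas (median 12.1), with a difference of 2.20 ± 1.26 and an adjusted p of 0.632. Of the 7 tested genes within 400000 bases of Krt10, 1 was called, Krt23, and 5 had the higher mean in hGFAP-Gnas, as did 59.8% of all genes tested, of which 0.0506% were called.

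Cxcl5 and Mrc1 are genes of inflammation and of macrophages. Cxcl5, a chemokine that draws neutrophils (chromosome 5, 91188324 to 91190651), ranged from 0.525 to 1.53 FPKM (median 0.957) in Olig1-Gnas. The hGFAP-Gnas libraries had 5.65, 15.2, 7.81 and 7.97 FPKM, and no Ctrl library exceeded 0.139 FPKM. Knockout groups did not overlap for Cxcl5, and the difference was 2.29 ± 0.26 (limma adjusted p 0.00711). Mrc1, the mannose receptor of border-associated and alternatively activated macrophages (chromosome 2, 14151040 to 14253650), ranged from 0.71 to 1.46 FPKM (median 1.33) in Olig1-Gnas, near the 0.972 to 1.11 FPKM of Ctrl. In hGFAP-Gnas it stood at 5.81, 7.19, 3.95 and 5.80 FPKM, and the difference was 1.60 ± 0.20 (adjusted p 0.0119). Leaving out hGFAP-Gnas 4 or 6 ended the call of Mrc1, with adjusted p up to 0.0848 over the fits without 1 library. Lyve1 and Cd209f, other genes of border macrophages chosen after their values were seen, were too low to be tested: Lyve1 was at 0.0521 to 0.362 FPKM in Olig1-Gnas and 0.359 to 1.42 FPKM in hGFAP-Gnas, and Cd209f at 0 to 0.45 and 0.775 to 1.34 FPKM.

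No other macrophage gene of the lists was called. Of 16 tested genes of microglia and macrophages 0 were called in limma, with a median difference of -0.13 beside 0.06 for all genes. Over all genes tested 0.0506% were called, so 0 calls in so short a list say little about its genes. Cd68, a lysosomal protein of phagocytes, ranged from 42.2 to 117 FPKM (median 67.8) in Olig1-Gnas and from 54.3 to 69.8 FPKM in hGFAP-Gnas, with a difference of -0.13 and a 95% interval from -0.73 to 0.46. Mrc1 was the only 1 called of the 15 tested genes of disease-associated and tumor macrophages, whose median was 0.09. Of 13 tested chemokines and their receptors 0 were called. Their median was 0.63, and the largest difference was that of Ccl12, a monocyte chemokine, at 1.48 (adjusted p 0.519). Summed over its members, the microglia list stood at 724 to 2576 FPKM in Olig1-Gnas and at 907.5 to 1187 FPKM in hGFAP-Gnas, against 92.0 to 135.5 FPKM in Ctrl.

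Chn2, beta-chimaerin, a Rac-regulating protein that mature granule neurons make in quantity, was the called gene on the list of mature granule neurons (chromosome 6, 53989925 to 54380215). It ranged from 1.68 to 4.91 FPKM (median 3.97) in Olig1-Gnas and stood at 12.9, 14.2, 18.9 and 20.9 FPKM in hGFAP-Gnas, far below the 351, 334 and 282 FPKM of Ctrl. Groups did not overlap, and the difference was 1.95 ± 0.24 (limma adjusted p 0.0119). In a fit over all 16 knockout libraries with Gabra6 as a term the difference of Chn2 was 0.02 (adjusted p 0.999). Of the 7 called genes, 2 were called in that fit, Prm1 and Dmrtb1, while Krt10 had 2.85 (adjusted p 0.0991), Cxcl5 1.67 (0.383), Krt23 1.46 (0.0645) and Mrc1 1.37 (0.0858). Gabra6 is the gene that chose the 10 libraries, so these values are a description only. Leaving out hGFAP-Gnas 4, 5 or 6 ended the call of Chn2.

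**Figure D3:**
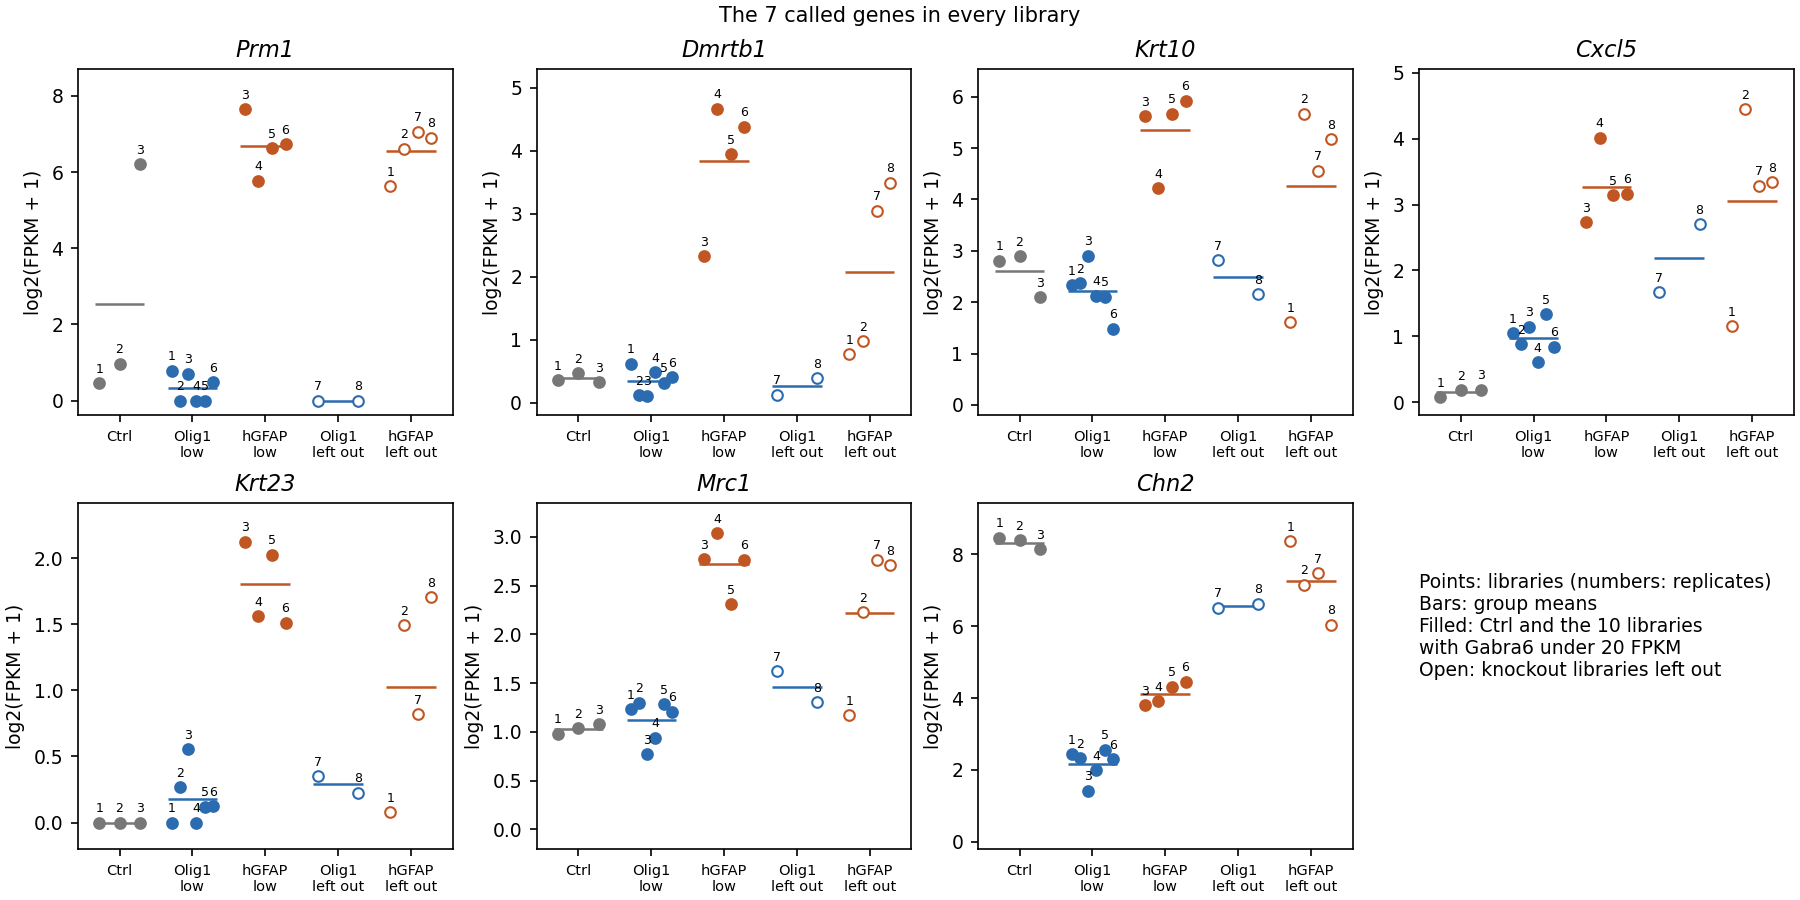
Level in log2(FPKM + 1) of the 7 called genes in all 19 libraries; points are libraries with replicate numbers, bars are group means, filled points are Ctrl and the 10 libraries compared, and open points are the 6 knockout libraries left out. In every panel the 4 filled hGFAP-Gnas points lie above the 6 filled Olig1-Gnas points; Ctrl 3 joins the hGFAP-Gnas libraries for Prm1, and Ctrl lies above both for Chn2.

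Depth and Y-linked signal differ in share between the groups, so the 7 genes were also fitted with each as a term. With the depth class as a term all 7 were called, at differences of 1.55 to 6.38. That fit called 10 genes in all, 9 higher in hGFAP-Gnas and 1, Tex19.1, lower. With Y-linked signal as a term only Prm1 was called, at 6.84, while the other 6 (Dmrtb1, Krt10, Cxcl5, Chn2, Krt23 and Mrc1) had differences of 1.55 to 3.28 and adjusted p of 0.0879 to 0.257. Within the 4 deeper libraries the 7 differences were 1.43 to 6.47 and none was called (adjusted p 0.0683 to 0.83). Within the 6 shallower libraries they were 1.47 to 6.31, and Prm1, Dmrtb1, Krt10 and Cxcl5 were called. Among libraries with Y-linked signal, where Olig1-Gnas is 1 library, they were 1.42 to 6.38, and among those without, where hGFAP-Gnas is 1 library, 1.68 to 7.25; a lone library is assumed to vary like the others. Because the 10 libraries do not overlap for these genes, the direction within a class was given beforehand, and only the sizes and adjusted p are informative. The part of either property in the results was not otherwise tested.

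The 6 knockout libraries with more normal tissue, which the comparison left out, gave a separate look at the same genes. Of the 7 genes, 5 passed the filter on low values there, and 5 of 5 had the higher mean in hGFAP-Gnas. Over all 13869 genes tested 41.1% did. The filter asks for 1 FPKM in at least 3 libraries, and only 2 of the 6 are Olig1-Gnas. A gene can thus pass through hGFAP-Gnas alone but not through Olig1-Gnas alone, which favors this direction. Prm1 was at 0 in Olig1-Gnas 7 and 8 and at 48.4, 97.2, 133 and 119 FPKM in hGFAP-Gnas 1, 2, 7 and 8, a difference of 6.55 (limma adjusted p 0.0159). It was the only gene called in these libraries (0.00721%). Prm1 passed the filter only through hGFAP-Gnas, so its direction and call there are a description only. Dmrtb1, not tested there, stood at 0.0928 and 0.313 FPKM in Olig1-Gnas against 0.703, 0.961, 7.29 and 10.3 FPKM in hGFAP-Gnas. Its groups did not overlap there, but with so few libraries, and no share over all genes beside it, this says little. Krt23, also not tested there, was at 0.276 and 0.169 FPKM against 0.054, 1.81, 0.764 and 2.26 FPKM. Krt10 was at 6.04 and 3.45 FPKM against 2.06, 49.9, 22.6 and 35.1 FPKM, so only hGFAP-Gnas 1, the library with the most Gabra6, lay low (difference 1.77, adjusted p 0.597). Cxcl5, Mrc1 and Chn2 had differences of 0.87, 0.76 and 0.69, with overlapping groups and no call.

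Olig1 and Gfap, whose promoters name the Cre lines, were not called. Olig1, a transcription factor of oligodendrocyte precursors, ranged from 11.2 to 86.2 FPKM (median 37.0) in Olig1-Gnas and stood at 165, 65.5, 88.0 and 105 FPKM in hGFAP-Gnas, against 25.4 to 30.7 FPKM in Ctrl. Olig1-Gnas 4, at 86.2 FPKM, overlapped the hGFAP-Gnas libraries, and the difference was 1.44 with a 95% interval from 0.40 to 2.49 (limma adjusted p 0.356). Olig2, its partner in the lineage, differed by -0.05 (adjusted p 0.974), a sign that several alternatives turned. Gfap, the filament protein of astrocytes, differed by 1.00 (adjusted p 0.632). The means of Gfap were 237 ± 158 FPKM (SD, n = 6) in Olig1-Gnas and 406 ± 209 FPKM (SD, n = 4) in hGFAP-Gnas.

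Lists of genes for neurons and glia of the cerebellum had their medians on the hGFAP-Gnas side, with 1 called gene among them, Chn2. The median was 1.09 over 14 Purkinje cell genes (13 with the higher mean in hGFAP-Gnas), 1.00 over 12 genes of oligodendrocyte precursors (11 higher), 0.95 over 12 of mature oligodendrocytes (12 higher), 0.84 over 14 of mature granule neurons (14 higher, Gabra6 among them) and 0.65 over 16 of Bergmann glia and astrocytes (16 higher). Over all genes tested the median was 0.06, and 0.0506% were called. Car8, a Purkinje cell protein that tempers the IP3 receptor, ranged from 0.665 to 3.11 FPKM in Olig1-Gnas and stood at 9.17, 3.33, 8.96 and 10.6 FPKM in hGFAP-Gnas (difference 1.74, adjusted p 0.149). Cbln3, a synaptic organizer of granule neurons, had a difference of 2.33 (adjusted p 0.16), and Gdf10, a BMP family factor of Bergmann glia, 2.46 (adjusted p 0.204). These 3 genes were named after their values were seen, and their groups did not overlap. Mog, a late myelin protein, ranged from 0.333 to 4.15 FPKM (median 1.60) in Olig1-Gnas and stood at 1.83, 16.4, 3.30 and 4.46 FPKM in hGFAP-Gnas, with a difference of 1.2 (adjusted p 0.49), or 0.67 without hGFAP-Gnas 4. The summed list of mature granule neurons was 194 to 343 FPKM in Olig1-Gnas and 307.5 to 534 FPKM in hGFAP-Gnas, against 3936 to 4831 FPKM in Ctrl. The summed list of oligodendrocyte precursors was 229 to 534 FPKM in Olig1-Gnas and 412 to 871 FPKM in hGFAP-Gnas, against 197 to 246 FPKM in Ctrl. Of the 10 libraries compared, all but Olig1-Gnas 3, at 229 FPKM, lay above Ctrl. The part of residual tissue in the differences of other genes was not tested.

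**Figure D4:**
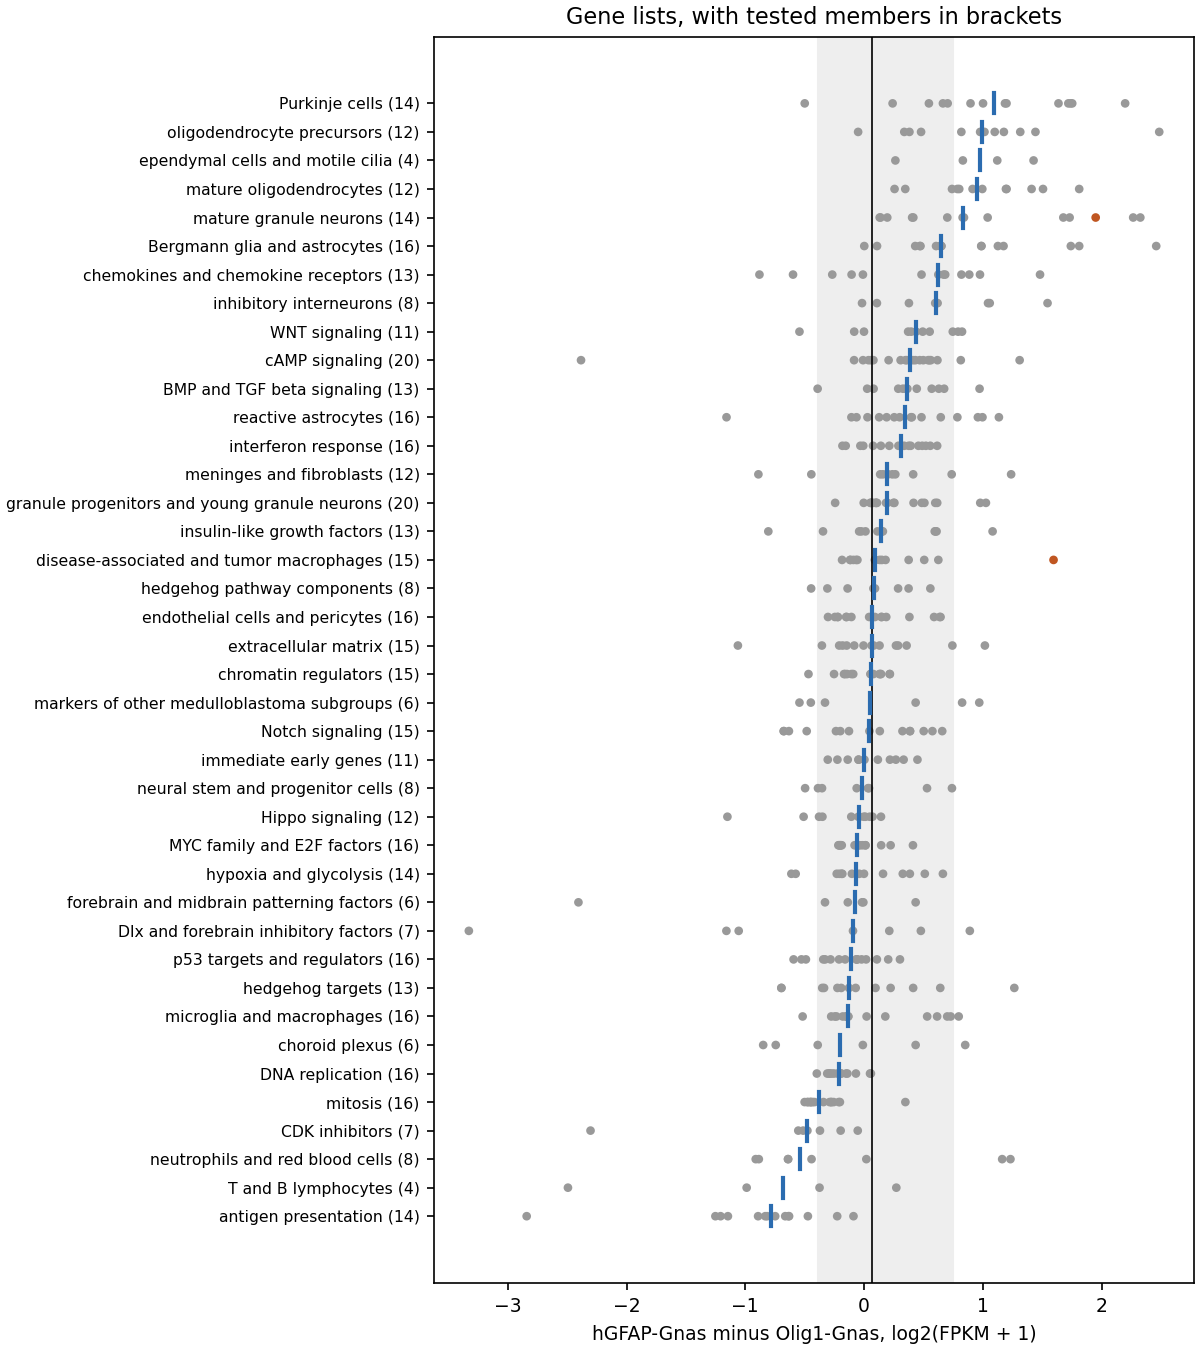
Difference of hGFAP-Gnas minus Olig1-Gnas in log2(FPKM + 1) for each tested member of 40 gene lists, with the number of tested members in brackets; blue bars are list medians, the grey band runs from the 5th to the 95th percentile of all genes tested (-0.39 to 0.75) and the black line is their median (0.06). Lists of Purkinje cells, oligodendrocytes and their precursors, mature granule neurons and Bergmann glia lie to the right, antigen presentation and CDK inhibitors to the left, and the orange points are the called members Chn2 and Mrc1.

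Gli1 and Ptch1 stood above Ctrl in all 10 libraries. Gli1, a GLI factor that is itself a pathway target, ranged from 67.8 to 122 FPKM (median 86.2) in Olig1-Gnas and stood at 83.0, 57.6, 73.2 and 65.4 FPKM in hGFAP-Gnas, against 7.20 to 8.51 FPKM in Ctrl. Groups overlapped for Gli1, and the difference was -0.35 (limma adjusted p 0.537). Ptch1, the hedgehog receptor and also a target, had means of 193 ± 76.1 FPKM (SD, n = 6) and 116 ± 31.6 FPKM (SD, n = 4) and a difference of -0.70 (adjusted p 0.444), against 46.9 to 51.7 FPKM in Ctrl. Of 13 tested hedgehog targets 0 were called, 5 had the higher mean in hGFAP-Gnas and 8 the lower, and the median was -0.13. Among the 8 tested components of the pathway 0 were called (median 0.09). Both counts stand beside 0.0506% called over all genes tested.

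Atoh1 stood far above Ctrl in both lines. This gene encodes the transcription factor of granule neuron progenitors and ranged from 23.8 to 201 FPKM (median 59.3) in Olig1-Gnas and from 52.2 to 145 FPKM in hGFAP-Gnas, while Ctrl was at most 0.198 FPKM. The difference of Atoh1 was 0.26 with a 95% interval from -0.92 to 1.43 (limma adjusted p 0.918), which spans both directions. Of the 20 genes of granule progenitors and young granule neurons 0 were called, beside 0.0506% of all genes tested, and the median was 0.19. Tlx3, a homeobox factor, had the largest difference, with 7.41 to 13.4 FPKM (median 9.0) in Olig1-Gnas and 18.9, 18.8, 22.7 and 20 FPKM in hGFAP-Gnas. Groups did not overlap for Tlx3, and its difference of 1.03 had an adjusted p of 0.104.

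Most genes of cell division had the lower mean in hGFAP-Gnas, and none was called. Mki67, a marker of dividing cells, ranged from 128 to 264 FPKM (median 158) in Olig1-Gnas and from 85.1 to 165 FPKM in hGFAP-Gnas, with a difference of -0.45 (limma adjusted p 0.624), against at most 0.325 FPKM in Ctrl. Without hGFAP-Gnas 4 the difference of Mki67 was -0.27, and it was -0.95 in deeper and -0.0015 in shallower libraries. The mean was lower in hGFAP-Gnas for 15 of 16 mitosis genes (median -0.38) and for 14 of 16 DNA replication genes (median -0.21). Of the 32 genes 0 were called, beside 0.0506% of all genes tested. All 7 CDK inhibitors had the lower mean in hGFAP-Gnas (median -0.48), again with 0 calls. Cdkn2a, which encodes the p16 and ARF tumor suppressors, stood at 12.8 to 142 FPKM (median 21.5) in Olig1-Gnas and at 3.43, 5.80, 6.75 and 12 FPKM in hGFAP-Gnas. The groups of Cdkn2a did not overlap, but the spread within Olig1-Gnas was wide, since Olig1-Gnas 3 and 4 had 142 and 136 FPKM and no other Olig1-Gnas library exceeded 24.0 FPKM, and the difference of -2.30 (95% interval -3.95 to -0.65) had an adjusted p of 0.356.

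Several genes with wide gaps on the Olig1-Gnas side, Dlx6, Gdpd3, Gpat2, Tex19.1 and Dazl among them, were chosen after their values were seen, and none was called. Dlx6, a homeobox factor of forebrain inhibitory neurons, was at 0 in all Ctrl libraries, ranged from 5.17 to 52.5 FPKM (median 14.7) in Olig1-Gnas and stood at 0.178, 0.13, 0.33 and 1.81 FPKM in hGFAP-Gnas. The lowest Olig1-Gnas library lay above the highest hGFAP-Gnas library, and the difference of -3.33 ± 0.53 had a limma adjusted p of 0.0798. Over all 16 knockout libraries Dlx6 was lower in hGFAP-Gnas by -3.46 (adjusted p 0.000605), and by -3.74 with Gabra6 as a term (adjusted p 0.0036). These fits hold the same 10 libraries and so are no independent evidence. Its neighbor Dlx5 differed by -1.16 (adjusted p 0.365). The overlapping antisense gene Dlx6os1 differed by -1.06 (adjusted p 0.263), and without strand its reads cannot be told from those of Dlx6. Of 7 tested genes of the forebrain inhibitory lineage 0 were called, beside 0.0506% of all genes tested, and the median was -0.09. En2, a factor of midbrain and cerebellum, was at 13.5 to 23.2 FPKM in Olig1-Gnas and 16.3 to 20.9 FPKM in hGFAP-Gnas. Of 17 Hox genes, factors of the hindbrain and spinal cord, 0 reached the level needed for the test. Their sum was 0.619 to 2.70 FPKM in Olig1-Gnas and 1.26, 23.1, 0.447 and 0.274 FPKM in hGFAP-Gnas 3 to 6. Why hGFAP-Gnas 4 stood apart was not tested.

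Gdpd3, a lysophospholipase D, ranged from 90.2 to 169.7 FPKM (median 127) in Olig1-Gnas and stood at 62.6, 2.32, 2.12 and 1.63 FPKM in hGFAP-Gnas, with 9.48 to 27.1 FPKM in Ctrl. Only hGFAP-Gnas 3 came near the Olig1-Gnas libraries. The difference was -4.27 ± 0.82 with a limma adjusted p of 0.16. Over the fits without 1 library it was -5.38 to -3.84. The limma adjusted p of these fits ran from 1.5e-06 (without hGFAP-Gnas 3) to 0.492 (without hGFAP-Gnas 4). Gpat2, an acyltransferase of mitochondria known from the testis, ranged from 1.30 to 16.2 FPKM (median 11.5) in Olig1-Gnas and from 0.473 to 1.31 FPKM in hGFAP-Gnas. Olig1-Gnas 6, at 1.30 FPKM, made the groups overlap, and without it the difference was -2.99 in place of -2.57. The limma adjusted p of Gpat2 was 0.15, and ran from 0.000255 (without Olig1-Gnas 6) to 0.431 (without hGFAP-Gnas 4) over the fits without 1 library. Tex19.1, a germ cell gene that restrains retrotransposons, was at 2.53 to 6.67 FPKM in Olig1-Gnas, 0.281 to 1.77 FPKM in hGFAP-Gnas and 0 in Ctrl, with a difference of -1.69 (adjusted p 0.083). It passed the threshold under quantile normalization (-1.97, limma adjusted p 0.0148) and with the depth class as a term (-1.77, 0.0417). Over the fits without 1 library its limma adjusted p ran from 0.0273 (without hGFAP-Gnas 3) to 0.31 (without hGFAP-Gnas 6). Dazl, an RNA-binding protein of germ cells, was at 277 FPKM in Olig1-Gnas 3 and 16.1 FPKM in Olig1-Gnas 4, at 0.298 to 2.63 FPKM in the other 4 and at most 0.0468 FPKM in hGFAP-Gnas (difference -2.55, adjusted p 0.628).

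**Figure D5:**
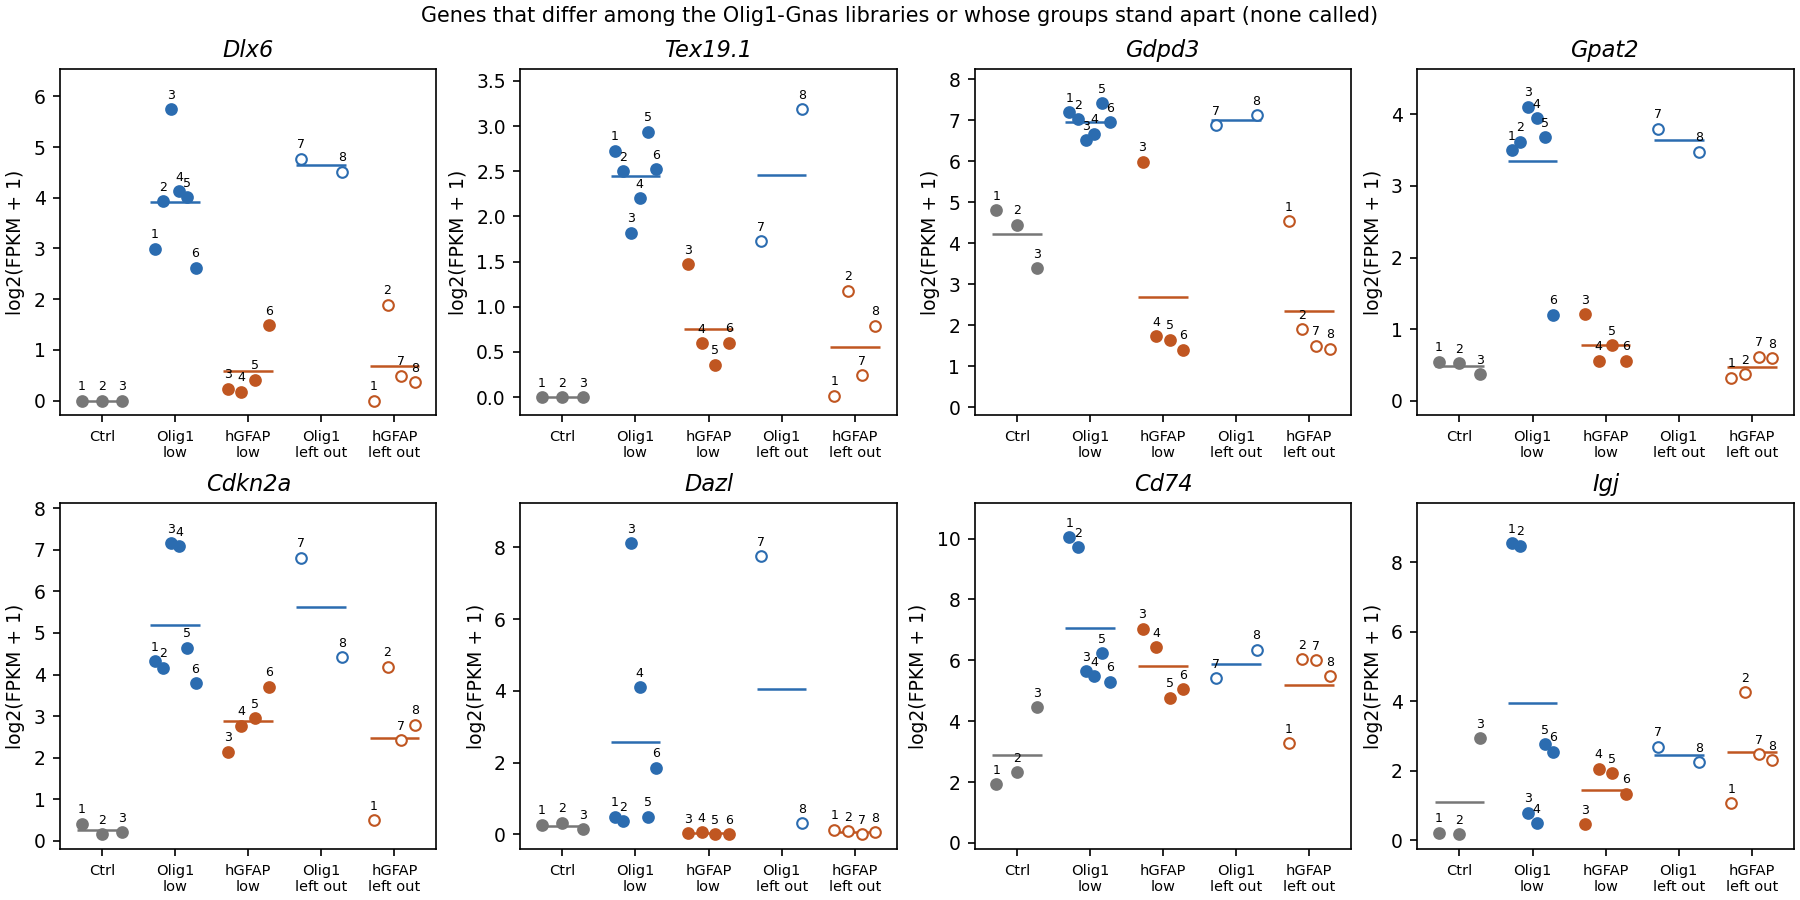
Level in log2(FPKM + 1) of 8 genes in all 19 libraries, drawn as for the called genes. Dlx6, Tex19.1, Gdpd3, Gpat2 and Cdkn2a have higher means in Olig1-Gnas, Gdpd3 is high in hGFAP-Gnas 3 and Gpat2 low in Olig1-Gnas 6, Dazl is high in Olig1-Gnas 3, 4 and 7 only, and Cd74 and Igj are highest in Olig1-Gnas 1 and 2.

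Olig1-Gnas 1 and 2 differed from the other 4 Olig1-Gnas libraries in immune genes. Genes of antigen presentation summed to 6658 and 5620 FPKM in Olig1-Gnas 1 and 2, to 524 to 673 FPKM in Olig1-Gnas 3 to 6 and to 544 to 1096 FPKM in hGFAP-Gnas, with 202.5 to 343 FPKM in Ctrl. Cd74, the invariant chain of MHC class II, followed them at 1060 and 842 FPKM in Olig1-Gnas 1 and 2 against 38.2 to 74.1 FPKM in the other 4. Igj, the joining chain of antibodies made by plasma cells, reached 375 and 356 FPKM in the same pair, whereas the other 4 stayed at or below 5.80 FPKM and hGFAP-Gnas at or below 3.17 FPKM. All 14 tested genes of antigen presentation had the lower mean in hGFAP-Gnas (median -0.78). In limma 0 of them were called, beside 0.0506% of all genes tested. Ttr, the transthyretin of choroid plexus, varied within every group, from 0.123 to 130.4 FPKM in Olig1-Gnas, 0.152 to 285 FPKM in hGFAP-Gnas and 0.184 to 1195 FPKM in Ctrl (difference 0.85, adjusted p 0.92).

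Genes of cAMP signaling, the pathway of Gsα, had their median on the hGFAP-Gnas side at 0.39, with 17 of 20 higher in the mean. In limma 0 of the 20 were called, beside 0.0506% of all genes tested. Adcy1, an adenylyl cyclase that cerebellar neurons express, had the largest difference toward hGFAP-Gnas, with 2.92 to 10.3 FPKM (median 8.09) in Olig1-Gnas and 12.2, 18.1, 19.4 and 20.9 FPKM in hGFAP-Gnas, against 242 to 296 FPKM in Ctrl. Groups did not overlap for Adcy1, and the difference was 1.31 (adjusted p 0.225). Prkaca, the main catalytic subunit of protein kinase A, was at 40.3 to 77.1 FPKM and 54.5 to 71.7 FPKM, with a difference of 0.08 and a 95% interval from -0.28 to 0.44. Gnas itself had a difference of -2.38 (adjusted p 0.726), and rests on 5 values of 0 among the 10: with zeros as missing it was -0.21 (adjusted p 0.956), and without 1 library it was -3.73 to -1.75.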

How the data were processed

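RNA of cerebellum from 19 mice (3 Ctrl, 8 Olig1-Gnas and 8 hGFAP-Gnas) was sequenced on an Illumina HiSeq. The authors deposited FPKM per gene, in 1 table for each Cre line with the same Ctrl mice in both, made with TopHat, Cufflinks and the mm9 build per the submitters' processing notes. Versions, the annotation, strand use and read totals are not given in the sources used here. Both tables, of 22193 genes each, were joined by gene. Ctrl 2 and 3 are identical in both, and Ctrl 1 differs in 5106 genes and was taken from the table of Olig1-Gnas. The labels give each library as 1 mouse; nothing says which shared a litter, so p-values measure the spread between these libraries.

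The 10 libraries, the members and the 42 gene lists (620 genes) were chosen with earlier results of these data known. Values were taken as log2(FPKM + 1), which makes folds of low genes smaller, and FPKM received no further scaling. Genes at 1 FPKM or more in at least 3 of the 10 libraries were fitted in limma 3.58.1 (R 4.3.3) with trend and robust moderation. P-values were adjusted by Benjamini-Hochberg over all genes tested. Zeros were kept as listed: 357 genes were at 0 in some libraries and at 1 FPKM or more in all others. Lists were not tested; counts and medians are given. Named genes are Gabra6 and Gnas and the called genes (up to 12 in each direction and up to 3 per list). Olig1, Olig2, Gfap, Gli1, Ptch1, Atoh1, Mki67, Cdkn2a, Mog, Cd68 and Ttr were also named. All other genes stand outside this rule, Aff3, Krt12, Crabp2 and Ly6k among them. They are to be read as chosen after their values were seen, also where this is not said. So are the members named for the largest difference of their list. Relative depth came from the spacing of values under 0.5 FPKM against Ctrl 2, with 0.6 as the limit between classes. Alternatives changed the offset, filter, scaling, moderation, block, covariates, libraries and thresholds. Number and depth of libraries limit the precision; read counts were not used here.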

Additional observations from a re-analysis of the deposited data

Results flagged for a closer look

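In 6 cases 1 library lay far from the others of its group by Dixon's ratio on the log2(FPKM + 1) scale. Chance alone gives this in about 1 of 20 groups, but the number of groups examined is not given here. The 6 cases can therefore not be set against that share. For Gnas and Ly6k the other 3 hGFAP-Gnas libraries were listed at 0, which fixes the ratio at 1. Gdpd3, Gpat2, Crabp2 and Ly6k were named after their values were seen. Gnas was at 40.89 FPKM in hGFAP-Gnas 5 and listed at 0 in the other 3 hGFAP-Gnas libraries. Ptch1 was at 342.6 FPKM in Olig1-Gnas 6, above the 5 other Olig1-Gnas libraries (median of the 6, 164 FPKM). Gdpd3 was at 62.64 FPKM in hGFAP-Gnas 3, against 1.63 to 2.32 FPKM in hGFAP-Gnas 4 to 6. Gpat2 was at 1.304 FPKM in Olig1-Gnas 6, against 10.3 to 16.2 FPKM in Olig1-Gnas 1 to 5. Crabp2, a retinoic acid binding protein, was at 1.141 FPKM in hGFAP-Gnas 6 and at 1.61 to 1.72 FPKM in the other 3. Ly6k, a surface protein known from the testis, was at 0.465 FPKM in hGFAP-Gnas 6 and at 0 in the other 3.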

How the results depend on the processing

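Of the 7 called genes, Prm1, Dmrtb1, Krt10 and Cxcl5 were called in each fit without 1 library; Chn2 was lost without hGFAP-Gnas 4, 5 or 6, Mrc1 without hGFAP-Gnas 4 or 6 and Krt23 without hGFAP-Gnas 5. The count of 7 was 6 with an offset of 0.1, 13 with no filter, 4 with 5 FPKM or more in every library of a group, 8 with quantile normalization (6 higher and 2 lower, against 7 and 0), 7 with upper quartile scaling, 1 with Y-linked signal as a term, 5 with Gabra6 under 10 FPKM (0 higher and 5 lower, hGFAP-Gnas being 1 library), 27 with Gabra6 under 100 FPKM (17 and 10), 59 over all 16 knockout libraries (38 and 21), 9 over these with Gabra6 as a term (3 and 6), 49 over all 19 libraries (37 and 12) and 4 at an adjusted p under 0.01. It was 5 to 23 without 1 library, and, in fits added after seeing the data, 7 in deeper and 26 in shallower libraries, 33 with and 12 without Y-linked signal. Deviations of same-numbered libraries correlated at -0.164 to -0.0141, within the -0.27 to 0.182 of differently numbered libraries. No pairing by replicate number was seen, but so few pairs cannot exclude it. With the replicate block 1 gene, Prm1, was called.

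Called list members, 2 in the reported fit, numbered 1 with the stricter filter, 0 with the replicate block, 0 with Y-linked signal as a term, 0 with Gabra6 under 10 FPKM, 5 under 100 FPKM, 5 over 16 libraries, 12 over 19, 0 to 5 without 1 library, 1 in deeper, 1 in shallower libraries and 0 without Y-linked signal. In the libraries left out, 5 of 5 genes kept their direction without each library in turn, a direction that the filter there favors.

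Among the genes named, signs turned only for some that were not called. Olig2 was 0.10 with Y-linked signal as a term, 0.065 in shallower libraries, 0.68 without Y-linked signal and -0.28 to 0.14 without 1 library. Atoh1 was -0.37 with Gabra6 under 10 FPKM, -0.018 under 100 FPKM, -0.97 over 16 libraries, -0.37 with Gabra6 as a term, -0.22 in shallower libraries, -0.019 with Y-linked signal and -0.038 to 0.57 without 1 library. Mki67 was 0.040 with Y-linked signal. Cd68 was 0.18 with the replicate block, 0.048 with Y-linked signal as a term, 0.10 with Gabra6 as a term, 0.42 in deeper libraries, 0.61 with Y-linked signal and -0.27 to 0.022 without 1 library. Ttr was -0.29 with Y-linked signal as a term, -1.003 with Gabra6 as a term, -0.42 in deeper libraries, -2.35 without Y-linked signal and -0.74 to 1.91 without 1 library. The cause of these changes was not tested, and with 4 against 6 libraries small differences lie within the error.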

Other observations

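Ependymal genes, which build motile cilia on the ventricle wall, were described in no comparison above. Foxj1, their master regulator, ranged from 0.428 to 4.34 FPKM (median 2.15) in Olig1-Gnas and stood at 9.29, 6.04, 5.59 and 7.32 FPKM in hGFAP-Gnas, without overlap, with a difference of 1.43 (limma adjusted p 0.255). Of the 4 tested ependymal genes 4 had the higher mean in hGFAP-Gnas (median 0.98) and 0 were called, beside 0.0506% of all genes tested. Gpr17, a receptor of committed oligodendrocyte precursors, ran from 0.565 to 58.3 FPKM in Olig1-Gnas and from 24.6 to 84.0 FPKM in hGFAP-Gnas (difference 2.49, adjusted p 0.48). Both were chosen after their values were seen.

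Xist, the RNA of the inactive X chromosome, was at 5.35, 11.2 and 11.6 FPKM in Olig1-Gnas 3, 4 and 6, which lack Y-linked signal, against 77.7 and 152 FPKM in Olig1-Gnas 1 and 2, 152 FPKM in hGFAP-Gnas 3 and 75.3 FPKM in Ctrl 3, which also lack it. It was at most 0.408 FPKM in the 4 of the 10 libraries with Y-linked signal.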
